A study of Ovis aries with 32 samples.

Results

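Preadipocytes of fetal sheep were compared before and after differentiation in culture, and the question put to the data was whether the response to differentiation differed between cells of growth-restricted (FGR) fetuses and cells of control fetuses. All 32 RNA-seq libraries of the series entered this comparison, 8 in each of 4 pools. The control pools held preadipocytes (MC and FC) and differentiated cells (MCD and FCD), and the FGR pools held preadipocytes (MFGR and FFGR) and differentiated cells (MFGRD and FFGRD). Each pool held 4 male and 4 female libraries, and sex was a covariate. The cells came from perirenal fat of near-term singleton fetuses of crossbred Columbia-Rambouillet ewes. In the FGR groups the ewe had been kept at raised ambient temperature in mid-gestation, which restricts the placenta, while ewes of the control groups were kept at normal temperature and fed the same amount. The differentiated cells were made from isolated preadipocytes in a dish, so the measurements describe cultured cells and not fat tissue. The labels do not say whether the 4 libraries of a group came from separate fetuses, so the p-values measure the spread between these samples.

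A preadipocyte becomes an adipocyte in response to hormonal inducers, glucocorticoid among them, through a cascade of transcription factors in which CEBPA and PPARG take the central place. The cell then gives up its stretched actin cytoskeleton and much of its fibrous matrix, and takes on the enzymes of fatty acid synthesis and esterification, the proteins that coat the lipid droplet, and the lipases that mobilize it. Perirenal fat is the main depot of the newborn lamb, and in fetal life it carries brown fat features.

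A response is here the mean of log2(value + 1) in differentiated cells minus that in preadipocytes, where a value is a count of reads normalized by the authors and summed over the transcripts of a gene. The difference of responses is the FGR response minus the control response, so a negative difference means a smaller rise or a larger fall in the FGR cells. Genes were tested when their value reached 10 in at least 8 of the 32 libraries, which left 12181 of 21271 genes. In the test of limma a gene was called at a Benjamini-Hochberg adjusted p-value below 0.05 with a difference above 1.5-fold.

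The libraries held approximately 7.78 to 21.3 M reads, with pool medians of 12.2 M in control preadipocytes, 11.8 M in control differentiated cells, 15.2 M in FGR preadipocytes and 14.8 M in FGR differentiated cells. A value of 10 stood for 5.58 to 14.4 reads. The libraries also differed in how far genes of long genomic span were over-represented, measured as the slope of a library's log2 deviations on the log10 of the span. This span slope averaged 0.11 ± 0.35 (SD, n = 8) in control preadipocytes, -0.01 ± 0.32 in control differentiated cells, -0.09 ± 0.50 in FGR preadipocytes and 0.00 ± 0.42 in FGR differentiated cells. Its own difference of responses was therefore 0.21. Values from a fit with the slope as a covariate are given for most lists and for some of the genes.

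The cells carried the markers of their labels. All 8 adipocyte markers passed the filter, and their summed value ran from 191 to 527 in control preadipocytes and 210 to 1533 in FGR preadipocytes, against 484 to 184419 and 4919 to 176231 in the differentiated pools. Mesenchymal markers, among them PDGFRA, VIM and DCN, summed to at least 57313 in every pool. Markers of other cells were lower, with some libraries standing out. The 6 endothelial markers summed to at most 287 in any library, with CDH5 and CLDN5 below 10 throughout. The 6 leukocyte markers summed to 88.4 to 220 in control preadipocytes, 122 to 942 in control differentiated cells, 98.2 to 1038 in FGR preadipocytes and 152 to 732 in FGR differentiated cells. The 6 muscle markers summed to 95.3 to 2380 and 188 to 1516 in control and FGR preadipocytes and 17.5 to 171 and 35.2 to 118 in the differentiated pools, mostly from DES and MYH11, with MYOD1, MYF5, MYOG and PAX7 below 10 throughout. The 8 epithelial, renal and adrenal markers summed to 18.6 to 1866 in control preadipocytes, 19.1 to 1357 in control differentiated cells, 47.6 to 718 in FGR preadipocytes and 18.8 to 289 in FGR differentiated cells. Among neural markers S100B was present in all pools, the mesothelial sum reached 330 at most, and for erythroid markers the highest sum was 7.2. The part that such cells have in any difference below was not tested, and in bulk RNA fewer cells of a type and less RNA per cell cannot be told apart.

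One library went against its label in these genes. FCD 4, a control female differentiated library, had the lowest value of its pool in 12 of the 13 mature adipocyte markers tested, with a median of 4.98 log2 units below the pool's median. Its ADIPOQ was 8.59, within the range of the preadipocytes, while its FKBP5, a glucocorticoid-induced gene, was 13800 and within the range of the other differentiated cells. Estimates for adipocyte genes are therefore given with and without FCD 4. That library was singled out by its low values in these genes, so leaving it out raises their control response by construction. In the FGR differentiated pool, FFGRD 4 was lowest in 7 of the 13 markers and MFGRD 4 in 4. Their median deviations from that pool's median were -1.65 and -1.38 log2 units, and estimates without either are not listed singly. Across the 32 fits that each left out 1 library, the difference ran from -2.36 to -0.95 for FABP4 and -2.75 to -1.18 for ADIPOQ. It ran from -2.73 to -1.50 for CD36 and from -1.30 to -0.14 for LIPE. In each of these genes the lowest estimate was the one without FCD 4, so that setting is 1 end of a range.

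No gene passed the test for a difference of responses. Calls numbered 0 of 12181 genes (0%), and the smallest adjusted p-value was 0.982 in limma. Before adjustment 135 genes (1.11%) lay below the threshold of 0.05 in limma, fewer than the 5% expected with no difference in any gene. Of these, 50 (0.41%) had a higher and 85 (0.698%) a lower response in FGR cells. Over all genes the median difference was 0.02, and 48.4% of the differences lay below 0. The count of 135 rested in part on single libraries. It was 342 without FFGRD 3, 246 without FC 2, 224 without FCD 3, 208 without MFGR 3, and 86 to 89 without MCD 2, FFGRD 2 or FCD 2, again with 0 calls in limma each time. With the span slope as covariate 285 genes (2.34%) lay below 0.05, and 0 were called. The main fit did not pair same-numbered libraries before and after differentiation, since the labels do not say whether they are pairs. With a replicate block that paired them 420 genes (3.45%) lay below 0.05, again with 0 called. The shortfall from 5% therefore depends in part on the fit.

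By contrast the mean response of both pools was called for 3300 genes (27.1%), of which 1502 rose and 1798 fell. These 3300 genes included 69 (2.09%) with an unadjusted p-value below 0.05 for the difference, and 0 were called for it. Their median response, taken in the direction of the mean response, was 1.15 in controls and 1.31 in FGR cells. In males the median difference in that direction was -0.02 and in females 0.31. Across all genes tested the control and FGR responses, which share no library, had a Pearson r of 0.88 and a Spearman rho of 0.76, a description in which genes are not independent replicates. Of 1970 genes called for the control response, 1968 had the same direction in FGR cells. Of 2432 genes called for the FGR response, 2420 had the same direction in controls, and 1528 were called for both.

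**Figure D1:**
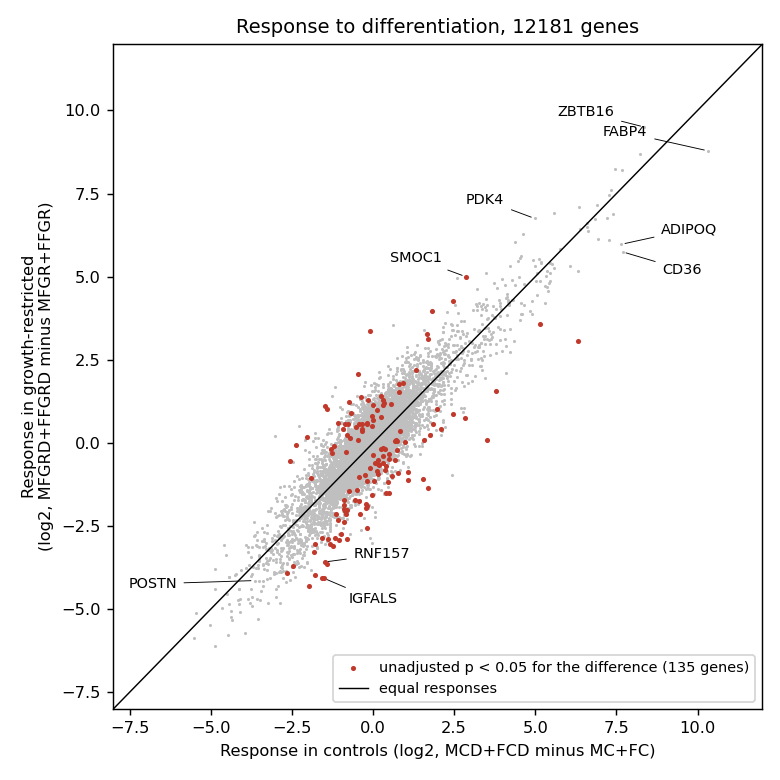
Each point is 1 of 12181 genes, with its response to differentiation in controls (x axis, log2) and in FGR cells (y axis, log2). The points follow the line of equal responses, and the 135 genes with an unadjusted p-value below 0.05 for the difference (red) lie off it on both sides.

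The size of a difference that the main fit, without a replicate block, could have missed varied by gene. The distance from a difference to either end of its 95% interval had a median of 1.03 log2 units over all genes, with quartiles of 0.70 and 1.49. The interval lay wholly within a 2-fold difference in either direction for 3646 genes (29.9%) and within 4-fold for 9100 (74.7%). Among the 3300 genes that responded to differentiation these numbers were 620 (18.8%) and 2250 (68.2%). For mature adipocyte markers the median was 2.55 log2 units, so differences of several-fold in those genes were not detectable between these pools in that fit.

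Mature adipocyte genes had lower estimates in FGR cells, none of them called. Of the 20 markers listed, 18 were in the table and 13 were tested. All but CIDEA were called for the mean response, all 12 upward. The difference was below 0 in 12 of the 13, against 48.4% of all genes, with a median of -0.64 against 0.02, and 0 of 13 had an unadjusted p-value below 0.05. The median response was 5.42 in controls and 4.81 in FGR cells. Without FCD 4 the median difference was -1.35, with 12 of 13 below 0, and with the span slope as covariate it was -0.48.

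FABP4 (chr9:62825357-62830354, Oar_rambouillet_v1.0) encodes the fatty acid carrier of adipocyte cytoplasm. Its values ran from 1.56 to 24.4 (median 9.9) in control preadipocytes and from 215 to 167630 (median 11006) in control differentiated cells. In FGR cells they ran from 4.65 to 445 (median 41.4) before and from 3366 to 154953 (median 10561) after differentiation. Within each state the control and FGR libraries overlapped widely. The response was 10.32 ± 1.05 (SE) in controls and 8.79 ± 1.05 in FGR cells, a difference of -1.53 (95% interval -4.55 to 1.49, unadjusted p = 0.309 in limma). Leaving out FCD 4 gave -2.36 (-5.01 to 0.29), and the span slope as covariate gave -0.81.

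ADIPOQ (chr1:218921967-218933226) encodes adiponectin, the hormone secreted by fat cells. Control preadipocytes had 0 to 23.2 (median 6.92) and control differentiated cells 8.59 to 13421 (median 1794). The FGR preadipocytes had 4.24 to 216 (median 17.1) and the FGR differentiated cells 146 to 10713 (median 1086). Here too the pools of each state overlapped. The difference was -1.68 (-5.07 to 1.71), -2.75 (-5.54 to 0.04) without FCD 4 and -1.08 with the span slope as covariate.

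CD36 (chr4:45189097-45601450), which takes up long-chain fatty acids at the cell surface, had the smallest p-value of the list. Its values were 0 to 83.0 (median 8.58) and 41.6 to 9386 (median 2476) in the control pools, and 8.38 to 192 (median 47.7) and 546 to 8951 (median 1798) in the FGR pools. The difference was -1.94 (-4.57 to 0.68, unadjusted p = 0.141 in limma). With FCD 4 left out it was -2.73 (-4.95 to -0.50), with an unadjusted p of 0.0181 and an adjusted p of 0.957 in limma. FCD 4 had the lowest CD36 value of its pool, so leaving it out lowers this estimate by construction.

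Estimates for LPL, CIDEC and PPARG were also below 0, with intervals that included 0. LPL, the lipase that frees fatty acids from circulating triglyceride, differed by -1.47 (-3.80 to 0.85), and CIDEC, which fuses lipid droplets, by -1.46 (-4.01 to 1.09). PPARG, the transcription factor that drives fat cell fate, was at -1.07 (-3.15 to 1.00). Without FCD 4 the estimates were -1.99 for LPL, -2.06 for CIDEC and -1.47 for PPARG. The span slope as covariate gave -1.49, -0.84 and -0.61 in the same order. LEP and AQP7 were not analysed here.

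**Figure D2:**
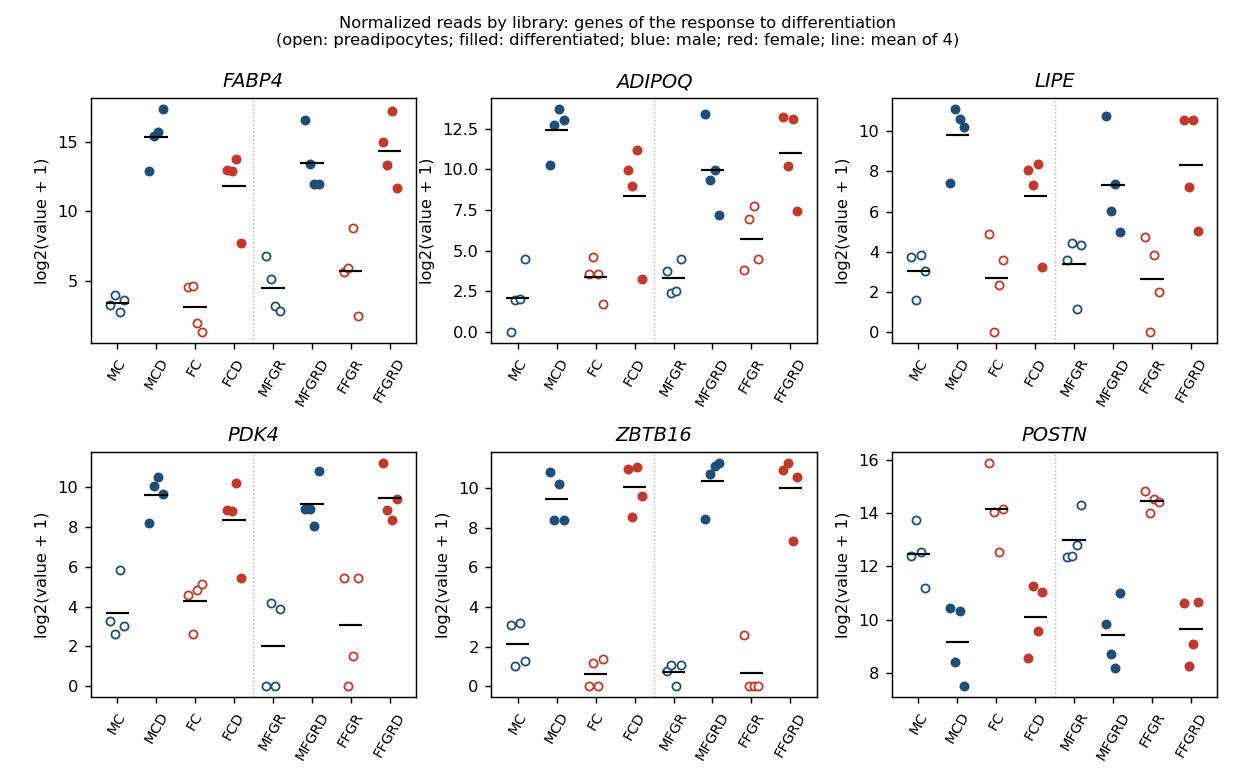
Each panel shows log2(value + 1) of 1 gene in the 8 groups, with 4 libraries each as points (open, preadipocytes; filled, differentiated cells; blue, male; red, female) and the group mean as a line. FABP4, ADIPOQ and LIPE were high in all differentiated groups of both arms, with FCD 4 far below the other 3 FCD libraries, whereas the ZBTB16 and POSTN of FCD were closer together.

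The 21 genes that the study names as changed by differentiation across its control groups and outside data sets were all tested here. All were called for the mean response, 14 upward and 7 downward. The list was chosen partly on these libraries, so it is no independent evidence of those directions. None had an unadjusted p-value below 0.05 for the difference, 11 of 21 were below 0 and the median was -0.20. Enzymes and coat proteins of triglyceride storage had wide intervals, and their estimates depended on FCD 4. DGAT2, which adds the last acyl chain of triglyceride, differed by -0.51 (-3.50 to 2.49). PLIN1 and PLIN4, coat proteins of the lipid droplet, differed by -0.36 (-2.78 to 2.06) and -0.72 (-3.08 to 1.63). ACSL1, which activates fatty acids to acyl-CoA, stood at -0.37 (-2.34 to 1.59). Without FCD 4 the estimates were -1.34 for DGAT2, -1.12 for PLIN1, -1.55 for PLIN4 and -0.90 for ACSL1, each again with an interval that included 0. With the span slope as covariate they were 0.047 for DGAT2, -0.13 for PLIN1, -0.67 for PLIN4 and -0.19 for ACSL1.

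LIPE (chr14:54061580-54072858) encodes hormone-sensitive lipase. It ran from 0 to 28.9 (median 8.99) and from 8.46 to 2207 (median 300) in the control pools, and from 0 to 25.5 (median 12.2) and from 31.0 to 1750 (median 156) in the FGR pools. All 8 FGR differentiated libraries lay within the control range. The lowest control value after differentiation was that of FCD 4, and the next was 157. With FCD 4 set aside, 4 of the 8 FGR libraries lay below the control values, at 31.0, 32.2, 64.6 and 146. FCD 4 was singled out by its low adipocyte genes, so that count is partly built in. The difference was -0.61 (-3.52 to 2.29, unadjusted p = 0.669 in limma), and -1.30 (-3.98 to 1.37) without FCD 4.

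THRSP, a regulator of fatty acid synthesis, was listed at 0 in all 8 control preadipocyte libraries and at up to 2.94 in FGR preadipocytes, against medians of 171 in control and 63.3 in FGR differentiated cells. KLB, the co-receptor of FGF21, had a median of 0 in both preadipocyte pools and medians of 371 and 203 after differentiation. For both genes a response on the log2 scale depends on the number added before the logarithm. The estimate for KLB was 0.19 with 1 added and -0.34 with 10 added, and -0.92 (-2.68 to 0.84) without FCD 4, in which KLB was listed at 0. That for THRSP was -0.45 with all libraries, -1.35 (-4.06 to 1.36) without FCD 4 and 0.099 with the span slope as covariate.

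Some induced genes had higher estimates in FGR cells. PDK4 (chr4:14711228-14723125), which turns pyruvate away from the citric acid cycle, ran from 5.06 to 57.1 (median 15.96) and from 42.3 to 1481 (median 633) in the control pools, and from 0 to 41.8 (median 7.79) and from 260 to 2357 (median 480) in the FGR pools. The pools of each state overlapped, and the difference was 1.77 (-0.60 to 4.14, unadjusted p = 0.138 in limma), the smallest p-value of the 21. Without FCD 4 it was 1.24 (-0.98 to 3.45). ZBTB16, a glucocorticoid-induced transcription factor, had medians of 1.36 and 969 in controls and 0.35 and 1815 in FGR cells, with a difference of 1.15 (-0.55 to 2.85). ABCD2, a peroxisomal transporter of fatty acyl-CoA, differed by 1.09 (-0.52 to 2.71). FKBP5, a co-chaperone of the glucocorticoid receptor, differed by 0.23 (-0.99 to 1.45) and CEBPA by 0.19 (-1.90 to 2.29). Without FCD 4 the estimates were 1.15 for ZBTB16, 0.60 for ABCD2, 0.24 for FKBP5 and -0.33 for CEBPA, and with the span slope as covariate that for FKBP5 was -0.12.

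The 7 downregulated genes encode proteins of actin filaments, matrix and signalling. LRRFIP1 had the control medians 4389 and 2599 and the FGR medians 4572 and 2472, with a difference of 0.11 (-0.83 to 1.05). PLS3, an actin bundler, differed by -0.39 (-1.08 to 0.30), TPM2, a tropomyosin, by 0.13 (-1.22 to 1.47) and NEXN, an actin-binding protein, by -0.20 (-1.64 to 1.23). POSTN, a matrix protein, had control medians of 9809 and 1031 and FGR medians of 18351 and 742, and differed by -0.49 (-2.04 to 1.06). LMO7, which links actin to cell junctions, differed by 0.82 (-0.81 to 2.46) and SPRED3, an inhibitor of Ras signalling, by 0.03 (-1.60 to 1.65).

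**Figure D3:**
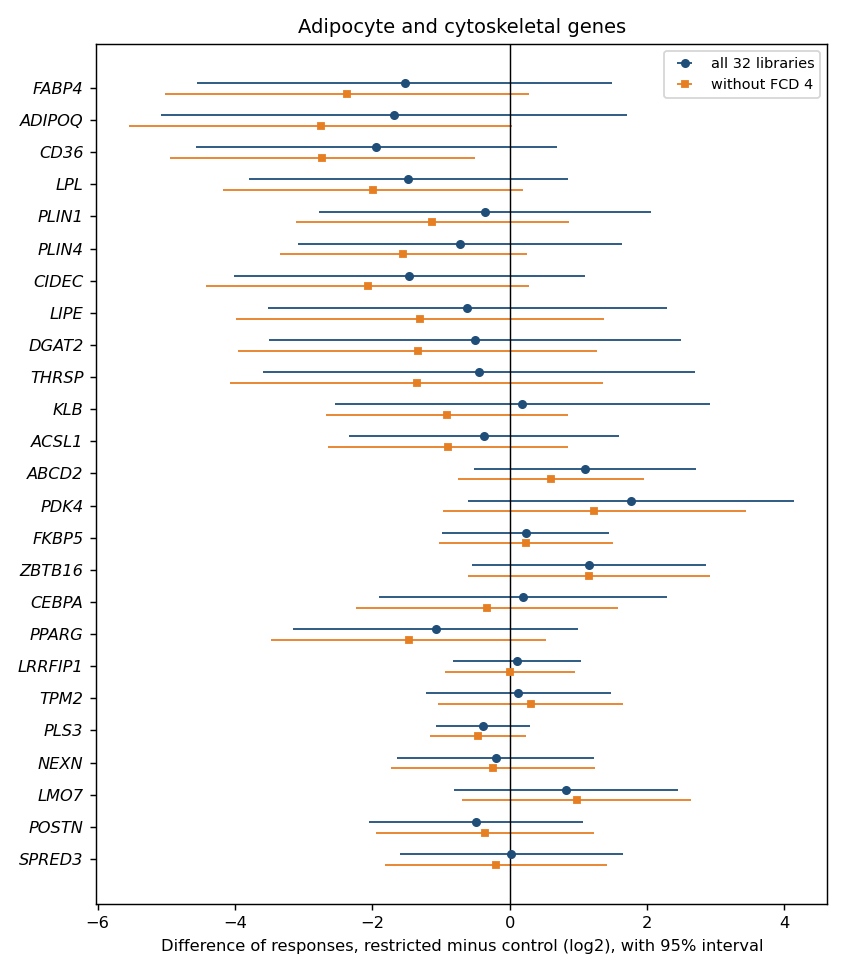
Points are the difference of responses, FGR minus control, on the log2 scale (x axis), and bars its 95% interval, for the genes on the y axis, with all 32 libraries (blue circles) and without FCD 4 (orange squares). With all libraries every interval includes 0. Without FCD 4 the interval of CD36 (-4.95 to -0.50) does not, and most lipid genes lie farther to the left. FCD 4 was singled out by its low adipocyte genes, so this shift is built in.

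The same genes were examined within each sex. The median difference of the 13 mature adipocyte markers was -2.52 in males and 0.89 in females, and 13 of 13 were below 0 in males against 3 of 13 in females. Without FCD 4 the female median was -0.31, with 7 of 13 below 0. None of the 13 had an unadjusted p-value below 0.05 for the difference between the sexes. FABP4 in MCD was 7654, 44948, 53192 and 167630, and in MFGRD 98379, 10983, 4058 and 4055. In FCD it was 8138, 7555, 13873 and 215, and in FFGRD 32204, 10140, 154953 and 3366. Among males 3 of the 4 restricted libraries lay below 3 of the 4 control libraries, and among females the groups overlapped. The difference of FABP4 was -2.95 (-6.98 to 1.07) in males and -0.11 (-4.13 to 3.92) in females.

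For the difference between the sexes limma, fitted without a replicate block, made 0 calls. Before adjustment 79 genes (0.649%) lay below the threshold of 0.05, fewer than the 5% expected with no difference, and the smallest adjusted p-value in limma was 1.00. Genes of de novo lipogenesis, which build fatty acids from acetyl-CoA, made up 6 of the 79, out of 19 tested. The 6 are named here after their values were seen. They are the fatty acid synthase FASN, the desaturase SCD, the elongase ELOVL6, the acetyl-CoA ligase ACSS2, the carbohydrate-sensing transcription factor MLXIPL and INSIG1, which holds back the sterol sensor. In all 6 the estimate was below 0 in males and above 0 in females. SCD (chr22:23879130-23891151) in males was 414, 684, 366 and 291 in MC, 4438, 10206, 22120 and 4795 in MCD, 343, 2824, 621 and 3130 in MFGR, and 5476, 3414, 1939 and 514 in MFGRD. Its difference was -3.49 (-5.92 to -1.07) in males and 1.21 (-1.22 to 3.63) in females, with an unadjusted p of 0.00904 and an adjusted p of 1.00 in limma for the difference between them. Without FCD 4 that p was 0.0189, and 4 of the 19 genes stayed below 0.05, against 47 of all 12181 genes. Outside this list ACSL1 (unadjusted p = 0.0436) and ABHD5 (unadjusted p = 0.0396), the activator of the main triglyceride lipase, had the same pattern in limma. Without FCD 4 these values were 0.0893 for ACSL1 and 0.0605 for ABHD5, neither below 0.05 in limma.

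Across lists of lipid genes no gene was called for the pooled difference, and 2 had an unadjusted p-value below 0.05, against 1.11% of all genes. This is a share near the background, and both genes are given as the leading members of their lists. Medians were 0.09 for 21 adipogenic transcription factors, -0.20 for 17 genes of triglyceride synthesis, -0.35 for 12 lipid droplet proteins, -0.28 for 13 genes of lipolysis and -0.19 for 18 genes of fatty acid uptake. They were -0.47 for 19 genes of de novo lipogenesis, 0.04 for 28 of fatty acid oxidation and -0.49 for 11 brown fat and thermogenic genes. Without FCD 4 the medians were, in the same order, -0.10, -0.18, -0.47, -0.28, -0.45, -0.67, -0.07 and -0.79. Under the slope covariate they were 0.015, -0.11, -0.13, -0.11, -0.11, -0.34, 0.091 and -0.25. The member with the smallest p-value in each was EBF1 (0.79), ACSL3 (-0.47), BSCL2 (-0.51), ABHD5 (-0.68), FABP3 (-2.35), FADS1 (-1.18), ACADL (0.72) and GATM (-1.39), in the same order. GATM, which makes the creatine precursor, had an unadjusted p of 0.0867 in limma with all libraries. Without FCD 4 it was at -1.79 with an unadjusted p of 0.0169 in limma. FCD 4 had the lowest GATM value of its pool, so leaving it out lowers this estimate by construction. With the span slope as covariate ACSL3 was at -0.62 (unadjusted p = 0.0124 in limma) and ACADL, an acyl-CoA dehydrogenase, at 0.50 (unadjusted p = 0.0398 in limma), none of these with a call.

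FABP3 (chr2:251661822-251670293), the fatty acid carrier of heart and muscle that brown fat also makes, was 1 of the 2. It ran from 41.1 to 454 (median 119) and from 6.86 to 136 (median 28.3) in the control pools, and from 37.8 to 1463 (median 618) and from 6.06 to 94.5 (median 12.2) in the FGR pools. The differentiated pools overlapped, and FGR preadipocytes reached the highest values. Its difference was -2.35 (-4.47 to -0.23, unadjusted p = 0.0313 and adjusted p = 0.982 in limma).

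FADS1 (chr21:42130627-42139928), the delta-5 desaturase of polyunsaturated fatty acids, was the other. Control preadipocytes had 264 to 470 (median 351) and control differentiated cells 231 to 733 (median 505). The FGR preadipocytes had 261 to 1271 (median 651) and the FGR differentiated cells 202 to 669 (median 331). Its control response was 0.36 ± 0.29 (SE) and its FGR response -0.82 ± 0.29, a difference of -1.18 (-2.03 to -0.33, unadjusted p = 0.00812 and adjusted p = 0.982 in limma).

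The genes with the smallest p-values carried no call, and they are given because they lead the ranking. Of the 10 genes with a symbol that led on the lower side, all 10 had their highest mean in FGR preadipocytes, and the estimate was below 0 in males and in females in each of the 10. The ranking used the pooled estimate, which averages the sexes, so the shared sign follows largely from how the genes were picked. A high mean in FGR preadipocytes also lowers the difference, so that pattern is partly built in too. RNF157 (chr11:7727295-7804427), a ubiquitin ligase, came first. Its values were 8.17 to 35.8 (median 14.3) and 2.54 to 12.8 (median 4.00) in the control pools, and 23.5 to 102 (median 49.6) and 0.79 to 12.7 (median 2.47) in the FGR pools. The preadipocyte pools overlapped only between 23.5 and 35.8, and the differentiated pools overlapped. The difference was -2.09 (-3.20 to -0.98, unadjusted p = 0.000607 and adjusted p = 0.982 in limma).

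IGFALS (chr24:1323107-1325919) encodes the acid-labile subunit of the circulating insulin-like growth factor complex. It had 1.22 to 79.7 (median 17.5) and 1.12 to 23.1 (median 4.32) in the control pools, and 16.2 to 264 (median 52.3) and 0 to 7.94 (median 3.06) in the FGR pools. Both states overlapped between the arms, and the difference was -2.55 (-4.09 to -1.01). The 17 tested genes of the insulin-like growth factor axis had a median of 0.54, with 4 below 0 (0.33 with the span slope as covariate), and IGFALS was the only member with an unadjusted p-value below 0.05.

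NEDD4L (chr23:63248568-63616207), a ubiquitin ligase of membrane transporters, had 42.9 to 267 (median 84.2) and 52.0 to 329 (median 105) in the control pools, and 68.4 to 329 (median 120) and 18.95 to 123 (median 46.8) in the FGR pools. Its response was 0.48 ± 0.42 (SE) in controls and -1.50 ± 0.42 in FGR cells, a difference of -1.98 (-3.20 to -0.76). The pools of each state overlapped. The remaining 6 were CDS1 (-2.20), which makes CDP-diacylglycerol from phosphatidic acid, ATP6V1B2 (-0.68), a subunit of the vacuolar proton pump, IGFLR1 (-1.57), THAP8 (-0.97), the elongation factor EEF1A2 (-1.93) and the endoplasmic reticulum receptor RETREG1 (-1.86).

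On the higher side the list was led by CATSPER2 (chr18:55681352-55697104), a sperm ion channel subunit that was low here. It had 7.15 to 18.4 (median 12.3) and 2.93 to 11.8 (median 4.71) in the control pools, and 5.41 to 13.7 (median 7.33) and 7.80 to 26.7 (median 11.0) in the FGR pools. These are counts of a few reads, and the difference was 1.68 (0.82 to 2.53, unadjusted p = 0.000373 and adjusted p = 0.982 in limma). ANGPTL1 (chr12:64555618-64573070), a secreted angiopoietin-like protein, was well expressed, at 985 to 3611 (median 1934) and 338 to 1253 (median 822) in the control pools and 724 to 2422 (median 1286) and 722 to 2091 (median 1008) in the FGR pools. Its response was -1.29 ± 0.27 (SE) in controls and -0.19 ± 0.27 in FGR cells, a difference of 1.10 (0.31 to 1.89).

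SMOC1 (chr7:85150506-85293123), a secreted calcium-binding matrix protein, was called for the mean response. It had 17.1 to 170 (median 73.8) and 82.7 to 1121 (median 503) in the control pools, and 4.20 to 282 (median 17.3) and 508 to 1766 (median 710) in the FGR pools. The FGR differentiated libraries all lay above the FGR preadipocytes, while the control pools overlapped between 82.7 and 170. The difference was 2.15 (0.37 to 3.93, unadjusted p = 0.0195 and adjusted p = 0.982 in limma). The other 7 were THSD1 (1.19), the choline transporter-like SLC44A5 (2.20), CTC1 (0.71), a subunit of the telomere-capping CST complex, the disulfide isomerase PDIA5 (0.71), the zinc finger genes ZNF214 (1.33) and ZNF382 (0.58), and LRRC49 (0.98). In all 10 genes of the higher side the estimate was above 0 in both sexes, which again follows largely from the ranking on the pooled estimate.

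**Figure D4:**
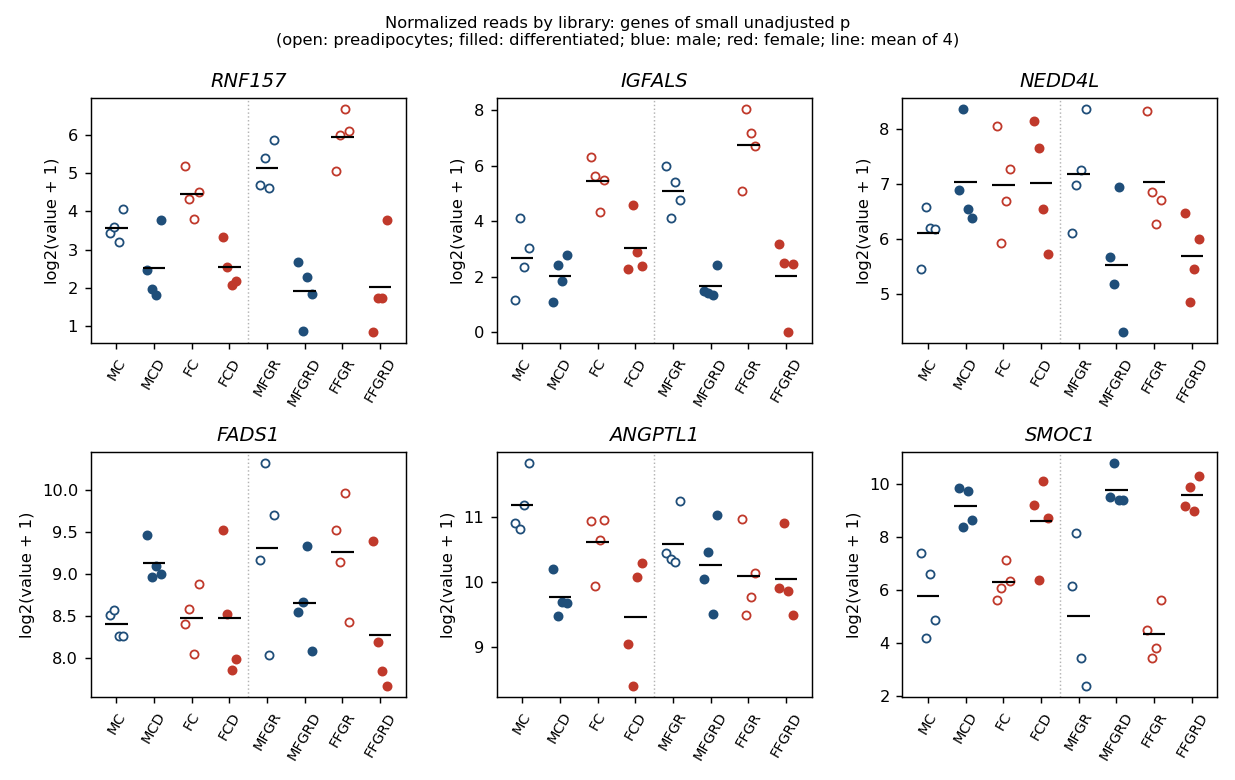
Each panel shows log2(value + 1) of 1 gene in the 8 groups, with 4 libraries each as points (open, preadipocytes; filled, differentiated cells; blue, male; red, female) and the group mean as a line. In RNF157 and IGFALS the FGR preadipocytes (MFGR and FFGR) stand above the control preadipocytes of the same sex on average, while the differentiated groups lie at similar levels.

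Beyond lipid genes the lists were chosen for matrix, signalling, stress and growth. Collagen genes had the highest median, 0.98 over 24 genes, with 20 above 0, and respiratory chain subunits a low one, -0.46 over 42 genes, with 41 below 0. In neither list did a gene reach an unadjusted p-value below 0.05, and both medians moved with the span slope, to 0.33 and -0.06 with it as covariate. The genes of these lists differ in span, with medians of 122 kb and 8.74 kb against 20.3 kb over all genes. COL3A1, a fibrillar collagen, had medians of 437986 and 297307 in controls and 230658 and 266395 in FGR cells, with a difference of 1.28 (-0.16 to 2.72), and 0.85 with the covariate (unadjusted p = 0.032 in limma). NDUFA12, a subunit of complex I, differed by -0.85 (-1.91 to 0.21), and by -0.51 with the covariate (unadjusted p = 0.0491 in limma). With the covariate 1 of the 24 collagen genes and 2 of the 42 respiratory chain genes lay below 0.05, against 2.34% of all genes, and none was called.

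Glucocorticoid-induced genes (20 tested) had a median of 0.31 and responses of 1.79 in controls and 1.90 in FGR cells. ANGPTL4, an inhibitor of lipoprotein lipase, led this list with 1.13 (-0.09 to 2.35). Medians were 0.22 for insulin signalling and glucose uptake (28 tested, led by PIK3R1 at 0.94), 0.28 for imprinted genes (14 tested, led by SLC38A4 at 1.51), -0.09 for adipokines and their receptors (21 tested) and 0.17 for hypoxia and glycolysis genes (29 tested, led by ENO2 at -1.23). Heat shock proteins and co-chaperones (29 tested, led by HSPB7 at -1.12) had a median of -0.21. None of the genes in these lists had an unadjusted p-value below 0.05. The fit with the slope covariate gave medians of 0.16 for glucocorticoid-induced genes, -0.10 for insulin signalling, 0.068 for imprinted genes, 0.14 for adipokines, 0.15 for hypoxia and -0.14 for heat shock, so those for insulin signalling and adipokines changed sign.

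Preadipocyte and progenitor markers (17 tested, led by MFAP5 at 1.03) had a median of 0.09. The same was near 0 for the actin cytoskeleton (34 tested, -0.04, led by MYH11 at 1.28), matrix proteases and inhibitors (28 tested, 0.12, led by ADAMTS9 at 1.35), the Wnt pathway (30 tested, 0.06, led by FZD2 at -1.41) and the cell cycle (35 tested, 0.15, led by CDKN1A at -1.18). It was 0.27 for TGF-beta and BMP signalling (42 tested, led by SMAD2 at -0.36), 0.27 for DNA and histone modifying enzymes (56 tested, led by TET1 at 1.71, and -0.02 with the covariate), -0.23 for antioxidant genes (36 tested, led by PRDX6 at -0.74), -0.15 for cytokine genes (26 tested, led by CSF1 at 0.78) and -0.26 for interferon response genes (21 tested, led by ISG15 at -2.25). Again 0 of these genes had an unadjusted p-value below 0.05 in limma. Adding the slope covariate gave medians of -0.22 for preadipocyte markers, -0.12 for the cytoskeleton, 0.052 for proteases, -0.15 for the Wnt pathway, 0.14 for the cell cycle, 0.0045 for TGF-beta and BMP signalling, 0.029 for antioxidant genes, -0.20 for cytokine genes and -0.35 for interferon genes, and MFAP5, a microfibril protein, was at 1.23 (unadjusted p = 0.0228 in limma).

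CD68 (chr11:36110820-36112834), a lysosomal membrane protein abundant in macrophages, was the 1 gene below that value among the markers of other cells. It had 49.2 to 188 (median 66.2) and 33.3 to 198 (median 63.6) in the control pools, and 51.4 to 513 (median 190) and 36.8 to 88.9 (median 63.2) in the FGR pools. The difference was -1.55 (-2.75 to -0.35, unadjusted p = 0.0129 and adjusted p = 0.982 in limma). The leukocyte markers PTPRC and AIF1 had a median of 0 in FGR preadipocytes and CSF1R one of 1.14, with highest values of 55.8, 37.6 and 36.3. CD163 and CD14 had medians of 3.87 and 36.4 in FGR preadipocytes, with highest values of 546 and 162. In control preadipocytes their medians were 4.97 and 40.9, with highest values of 25.4 and 86.8. Of the other lists, TEK (1.56) led the endothelial genes, PAX8 (-1.28) the epithelial, renal and adrenal ones, WT1 (-0.71) the mesothelial and S100B (-0.27) the neural and glial ones, and no erythroid gene passed the filter.

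**Figure D5:**
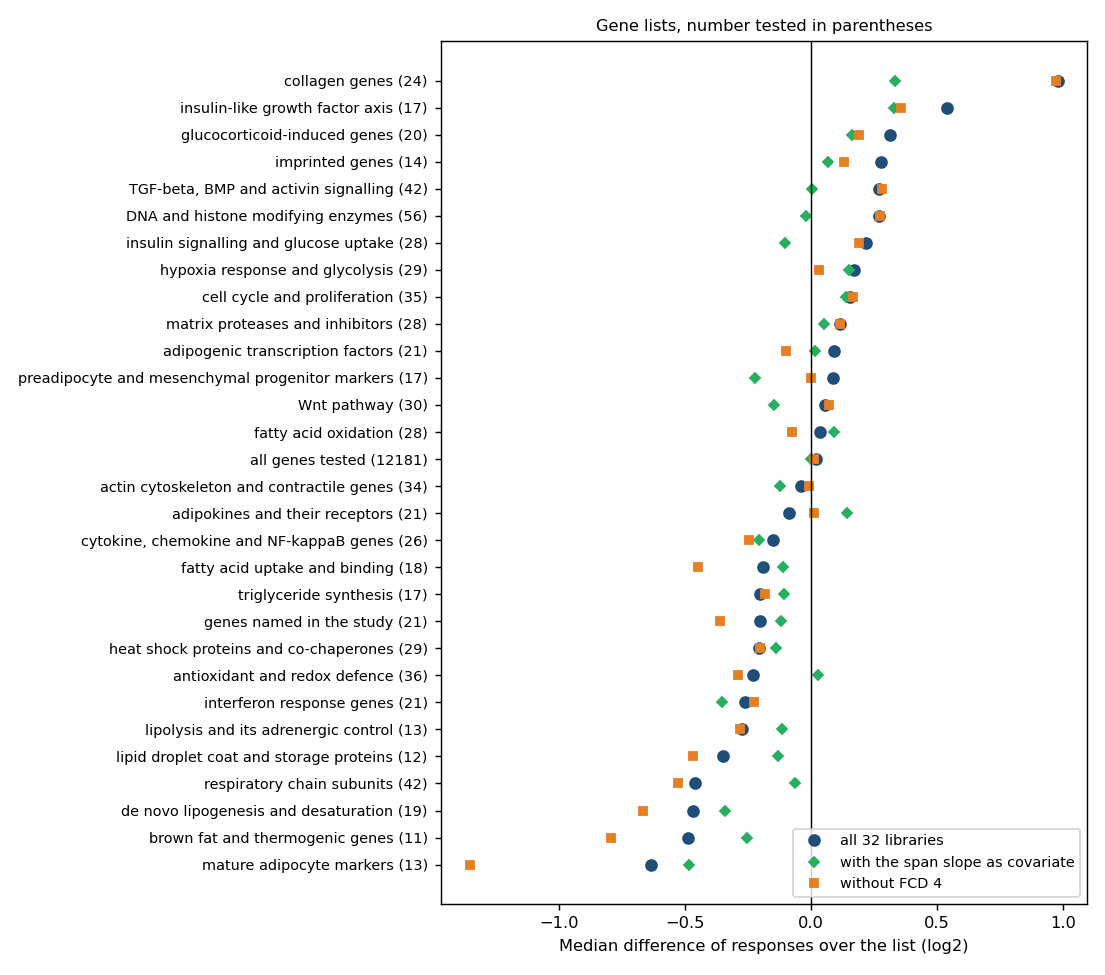
Each row is a gene list with at least 10 genes tested (number in parentheses), and points are the median difference of responses over its genes on the log2 scale (x axis), with all 32 libraries (blue circles), with the span slope as covariate (green diamonds) and without FCD 4 (orange squares). Collagen genes move from 0.98 to 0.33 and respiratory chain subunits from -0.46 to -0.06 with the covariate, and mature adipocyte markers from -0.64 to -1.35 without FCD 4.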

How the data were processed

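RNA-seq was read from 1 deposited table. The authors checked reads with FastQC (0.11.9 per the labels), discarded those of low quality, quantified transcripts with Salmon on Oar_rambouillet_v1.0 and normalized them with DESeq2, and the deposited signal is a normalized read count per transcript and library. Low values were whole multiples of 1 read (within 0.05 of a step) in only 66.3% to 95% of cases, so count tests were not used. The 8 columns of group means and the 21 columns of the authors' 7 comparisons (fold change, p and adjusted p) were not used.

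Values were summed by gene ID, filtered, and fitted as log2(value + 1) in limma 3.58.1 (R 4.3.3) with 1 mean per pool, sex as covariate and an intensity trend, on all 12181 genes, after a check on simulated data. Alternatives changed the filter, the added number, normalization, weights, covariates, blocks and libraries. Within-sex differences came from a fit of the 8 groups. Genes named are the 10 smallest p-values with a symbol in each direction, the study's 21 genes, the smallest p-value of each list and 3 further adipocyte genes (LPL, CIDEC and PPARG), apart from those said to be chosen after their values were seen. The comparison, lists and tests were chosen with earlier results of these data known.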

Additional observations from a re-analysis of the deposited data

Results flagged for a closer look

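Values of the named genes were searched for a library whose gap to its nearest neighbour was large against the range of its pool of 8 (Dixon's criterion). Of 332 pools tested, 30 held one. Chance gives about 1 in 20 for independent and normally distributed values. Many of these genes vary together and some values are 0, so no excess can be read from these 30. FCD 4 was the lowest differentiated control library in 9 of them, with 215 for FABP4, 8.59 for ADIPOQ, 3.54 for DGAT2, 0.70 for PLIN4, 41.6 for CD36, 42.3 for PDK4, 8.48 for GATM and 0.70 for WT1, and in KLB it was listed at 0.

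Among control preadipocytes, FC 2 was lowest in FKBP5 (105), LMO7 (1203) and SLC38A4 (37.0) and highest in IGFLR1 (97.3). FC 1 was highest in LRRFIP1 (14756), ANGPTL4 (2617) and PAX8 (151). CTC1 was lowest in FC 4 (43.2), S100B in FC 3 (182) and THAP8 in MC 3 (3.01), while ISG15 was highest in MC 4 (249).

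Among the other pools, SMOC1 was lowest in FCD 2 (82.7). In FGR preadipocytes, CTC1 was lowest in FFGR 2 (24.998), and the highest values were FFGR 3 for KLB (0.94) and FFGR 1 for ZBTB16 (5.08) and ANGPTL4 (3301). In FGR differentiated cells, FFGRD 3 was lowest in EBF1 (306), COL3A1 (62348) and SLC44A5 (listed at 0), FFGRD 2 in ATP6V1B2 (630.0) and FFGRD 1 in EEF1A2 (4.78).

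The difference of responses itself differed between the sexes, males minus females, at an unadjusted p-value below 0.05 in limma for 8 named genes, each with an adjusted p-value of 1.00. The values were -4.74 for MLXIPL, -4.70 for SCD, -4.65 for ACSS2, -4.39 for ELOVL6, -3.76 for ACSL1, -3.43 for INSIG1, -2.91 for FASN and -2.54 for ABHD5. All but ACSL1 and ABHD5 were chosen after their values were seen.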

How the results depend on the processing

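Calls for the difference of responses numbered 0 in each of the 47 alternatives run, 32 of which left out 1 library. The number of genes at an unadjusted p-value below 0.05 (135) moved to 39 in females only, 75 with a filter of 100, 581 with library weights, 285 with no filter, 285 with the span slope as covariate, 420 with a replicate block and 434 with the block and the slope, and ran from 86 to 342 when 1 library was left out. The block changed no call. With it 8 of 17 proton pump, 11 of 54 lysosomal, 4 of 24 collagen and 1 of 42 respiratory chain genes lay below 0.05. The share over all genes with the block was 3.45%. Same-numbered samples correlated above 0.1 in 15 of 16 cases (lowest -0.432), and 13 of 16 were closest to their own number, a hint from the data and not the design. The low slope and block with slope alternatives were chosen after seeing the data.

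Of 83 named genes, 54 kept the sign of the difference in all alternatives. In females only it turned to 1.28 (THRSP), 0.28 (ADIPOQ), 1.27 (DGAT2), 1.65 (LIPE), 1.18 (PLIN4), 1.62 (PLIN1), 1.51 (ACSL1), -0.064 (ZBTB16), -0.21 (LMO7), -0.50 (SPRED3), 0.59 (ABHD5), 0.16 (WT1), 0.73 (S100B), 0.30 (LPL), 0.96 (FASN), 1.21 (SCD), 1.82 (ELOVL6), 1.55 (MLXIPL), 0.69 (INSIG1) and 1.34 (ACSS2). In males only it turned to -2.21 (KLB), -1.02 (CEBPA), -0.0082 (LRRFIP1) and 0.042 (PLS3). With the slope covariate it was 0.10 (THRSP), 0.047 (DGAT2), -0.12 (FKBP5), -0.029 (LRRFIP1) and -0.22 (SPRED3), and with block and slope -0.20 (FKBP5), -0.087 (LRRFIP1) and -0.41 (SPRED3). Without the 9 libraries of low span slope it was -0.19 (FKBP5), -0.021 (LRRFIP1), -0.18 (TPM2), -0.73 (SPRED3), -0.035 (MYH11), -0.16 (TEK) and 0.15 (WT1). Library weights gave -0.53 (KLB), -0.068 (LRRFIP1) and -0.53 (SPRED3), another added number -0.34 (KLB, 10) and -0.36 (SPRED3, 0.1), and quantile normalization -0.16 (SPRED3). With 1 library left out the ranges that crossed 0 were -0.33 to 0.56 (CEBPA), -1.34 to 0.058 (DGAT2), -0.055 to 0.50 (FKBP5), -0.92 to 0.59 (KLB), -0.13 to 0.33 (LRRFIP1), -0.54 to 0.065 (NEXN), -1.12 to 0.10 (PLIN1), -0.34 to 0.27 (SPRED3), -1.35 to 0.13 (THRSP) and -0.18 to 0.42 (TPM2). The cause was not tested.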

Other observations

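Subunits of the vacuolar proton pump, which acidifies lysosomes, were looked at after ATP6V1B2 appeared among the genes of smallest p-value. Of 17 tested, 13 had a difference below 0, against 48.4% of all genes, with a median of -0.58. An unadjusted p-value below 0.05 was found for 4 of the 17, against 1.11% of all genes. The 4 include ATP6V1B2 (-0.68), which prompted the list, so its place among them is built in. The others were ATP6V1C1 (-0.66), ATP6V1H (-0.55) and ATP6V0C (-0.70). None was called in limma. With the span slope as covariate the median was -0.43, and 9 of the 17 had an unadjusted p-value below 0.05 against 2.34% of all genes.

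A list of lysosomal genes chosen in the same way had 54 tested and a median of -0.34. Of the 54, 48 were below 0, against 48.4% of all genes. The list held 6 genes with an unadjusted p-value below 0.05, against 1.11% of all genes, all lower in FGR cells, and 0 called in limma. Besides CD68 these were WDR91 (-0.82), RRAGD (-1.74), which signals nutrients to the lysosome, LITAF (-1.17), RAB32 (-1.30) and the sialidase NEU1 (-0.48). The median was -0.28 with the slope covariate, with 8 genes below 0.05 against 2.34% of all genes, and -0.39 without FCD 4. Both lists were chosen after values were seen and carry no test.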
